A study of Homo sapiens with 23 samples.

Results

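The peak lists of H3K27ac and H3K4me1 were compared in NCI-H23 cells, an established human line of non-small cell lung cancer. The lists were chosen by the target named in the sample titles. H3K27ac and H3K4me1 account for 4 of the 23 samples of the series, 2 replicate libraries each, and for 4 of the 22 samples with a peak list. The assay was chromatin immunoprecipitation followed by sequencing (ChIP-seq), in which DNA bound by a marked histone is recovered with an antibody and stretches with more reads than the background are called as peaks. H3K27ac was recovered with a mouse monoclonal and H3K4me1 with a rabbit polyclonal antibody, both from Diagenode. All groups are the same parental line with no genetic change named in the labels. The shared treatment protocol names the BET inhibitor JQ1 and its solvent DMSO, yet the treatment of single libraries is not labelled, so treatment and replicate cannot be told apart. Whether the replicates were grown separately is not stated either, so the spread between them may be technical. The label codes of the second library of both marks end in a letter that those of the first lack, and its meaning is not given.

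H3K4me1, a single methyl group on lysine 4 of histone H3, is placed mainly by the enzymes KMT2C and KMT2D and is found at enhancers whether or not they are active, and beside promoters. H3K27ac, an acetyl group on lysine 27 of the same histone, is placed by EP300 and CREBBP and is found at active enhancers and active promoters. H3K4me3, with all methyl positions of lysine 4 filled, is the mark of active promoters, where H3K4me1 is typically low at the start site and higher on both sides. For this reason H3K27ac and H3K4me1 were compared away from H3K4me3. The lists come from bulk cells, so peaks that overlap are not shown to mark the same cell or the same nucleosome.

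The lists held 122841 peaks for H3K27ac replicate 1, 100210 for H3K27ac replicate 2, 141240 for H3K4me1 replicate 1 and 204854 for H3K4me1 replicate 2, within the range of 21572 to 277462 peaks over all 22 lists. Read numbers are not in the lists, so sequencing depth is unknown. A peak was called distal when no H3K4me3 peak of either H3K4me3 list (21572 and 22025 peaks) lay within 1000 bp of it. This left 97555 peaks (79.4%) of H3K27ac replicate 1, 74713 (74.6%) of replicate 2, 100670 (71.3%) of H3K4me1 replicate 1 and 163568 (79.9%) of replicate 2. H3K27ac peaks overlapping H3K4me3 were far stronger and had a median −log10 q of 74.3 and 92.3 in replicates 1 and 2, against 3.77 and 4.56 for distal peaks. Median distal width was 357 and 425 bp for H3K27ac and 395 and 484 bp for H3K4me1. Distal peaks covered 56.7 and 60.4 Mb for H3K27ac, and 60.4 and 131.1 Mb for H3K4me1. The H3K4me1 lists were therefore unequal, replicate 2 being longer 1.63 times in peaks and 2.17 times in covered bases. With 2 libraries in each group the smallest two-sided p of an exact permutation test is 0.333, and peaks are not replicates. All comparisons are therefore given as values with the spread between libraries and without a test.

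Between 43.0% and 74.5% of distal H3K27ac peaks carried H3K4me1, and the share depended on the H3K4me1 library more than on the H3K27ac library. Against H3K4me1 replicate 1, 43.0% of the distal peaks of H3K27ac replicate 1 and 50.5% of those of replicate 2 overlapped an H3K4me1 peak by at least 1 bp. Against H3K4me1 replicate 2 the shares were 64.7% and 74.5%. The mean of the 4 library pairs was 58.2% ± 6.15 (SD between H3K27ac libraries, n = 2), and the SD between H3K4me1 libraries was 16.1 (n = 2). As a background, distal peaks of the other 8 targets in 16 lists overlapped H3K4me1 replicate 1 in 15.1% and H3K4me1 replicate 2 in 22.5% of cases. Every share of H3K27ac exceeded this pooled background of the same H3K4me1 list, though not every single target. Of these 8 targets, distal H4K5acK8ac peaks met any H3K4me1 peak most often. Their shares were 54.7% and 54.9% for H3K4me1 replicate 1, and 74.4% and 75.1% for H3K4me1 replicate 2. For H3K4me1 replicate 1 they lay above both H3K27ac shares, and for H3K4me1 replicate 2 close to the share of H3K27ac replicate 2. Distal H3K27me3 and H3K9me3 peaks met H3K4me1 least often, at most 1.98%. Neither H3K4me1 list met 34.5% and 24.7% of the distal peaks of H3K27ac replicates 1 and 2. The 95% Wilson intervals of the shares of both marks spanned at most 0.717 percentage points. They hold for counting error alone and take peaks as independent, and the spread between libraries is far larger.

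In the other direction, between 27.3% and 44.2% of distal H3K4me1 peaks carried H3K27ac of a given library. Of the peaks of H3K4me1 replicate 1, 41.1% overlapped H3K27ac replicate 1 and 44.2% replicate 2. Of those of H3K4me1 replicate 2, 27.3% and 28.6% did so. The mean was 35.3% ± 10.4 (SD between H3K4me1 libraries, n = 2), while the SD between H3K27ac libraries was 1.54 (n = 2). The background of the other 8 targets was 16.2% for H3K27ac replicate 1 and 16.2% for replicate 2, so both H3K4me1 lists lay above it. Single targets differed widely: distal H4K5acK8ac (54.2% to 69.1%), H4K5ac (39.7% to 48.1%) and H4K12ac (34.5% to 35.7%) peaks met H3K27ac more often than the peaks of H3K4me1 replicate 2 did, as did BRD2 replicate 2 (28.3% and 29.9%). H3K27ac in at least 1 list was found at 53.7% of distal H3K4me1 peaks of replicate 1 and 37.7% of those of replicate 2. The shares of H3K4me1 replicate 1 exceeded those of replicate 2 by 14.8 ± 1.26 percentage points (SD between H3K27ac libraries, n = 2). The longer H3K4me1 list thus gave the higher share of H3K27ac peaks with H3K4me1 and the lower share of H3K4me1 peaks with H3K27ac.

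Merging overlapping distal peaks of an H3K27ac and an H3K4me1 list into regions gave a share with both marks that moved little between libraries. Both marks were found at 24.0%, 23.4%, 27.6% and 24.8% of 151107, 200249, 128610 and 180647 regions (in the order H3K27ac replicate 1 with H3K4me1 replicates 1 and 2, then H3K27ac replicate 2 with the same), a mean of 24.9% ± 1.77 (SD between H3K27ac libraries, n = 2). The rest was divided according to the H3K4me1 list. H3K27ac alone made up 36.8% and 28.8% of regions with H3K4me1 replicate 1, and 17.2% and 10.6% with replicate 2, for H3K27ac replicates 1 and 2. H3K4me1 alone made up 39.2% and 43.7% with H3K4me1 replicate 1, and 59.4% and 64.7% with replicate 2. Of the distal bases covered by either mark, both covered a fraction of 0.265, 0.230, 0.293 and 0.280 in the same order of pairs.

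**Figure D1:**
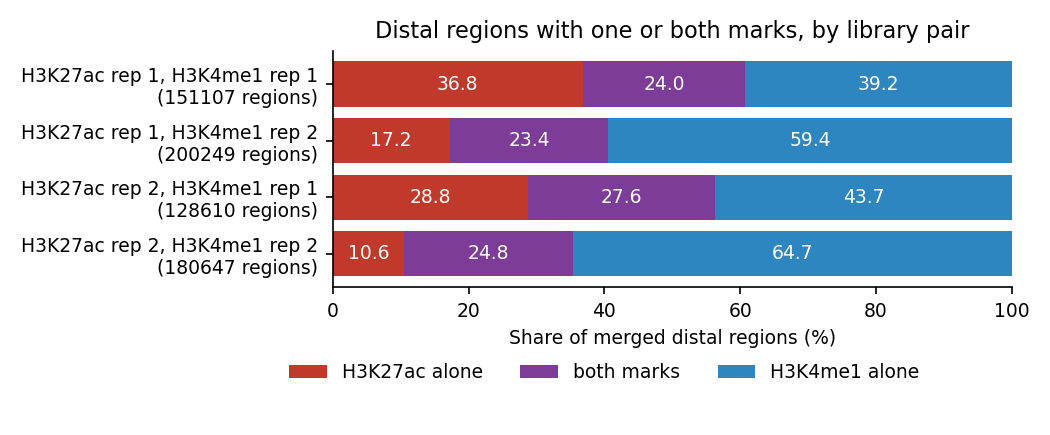
Share of merged distal regions (x axis, %) with H3K27ac alone, both marks or H3K4me1 alone, 1 bar per library pair. The share with both marks lies between 23.4% and 27.6% in all 4 bars, while H3K27ac alone runs from 10.6% to 36.8%.

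Overlap followed the strength of the peak in all 4 lists. Distal peaks were ranked by −log10 q and divided into 10 equal groups. Of the weakest group of H3K27ac replicate 1, 22.7% carried H3K4me1 in replicate 1 and 45.0% in replicate 2. Of its strongest group, 89.4% and 97.2% did so. H3K27ac replicate 2 gave 31.6% and 59.7% in the weakest group and 91.4% and 97.6% in the strongest. In the strongest group the share was thus at least 89.4% whichever library was used. The shares of H3K4me1 peaks also rose with strength, and those of replicate 2 started lowest. In H3K4me1 replicate 1, H3K27ac was found at 23.4% and 24.3% of the weakest group and at 84.4% and 89.0% of the strongest (H3K27ac replicates 1 and 2). In H3K4me1 replicate 2 the values were 13.3% and 11.1% for the weakest, and 75.9% and 83.2% for the strongest. The middle of that list was low as well, with 17.7% and 17.1% in group 5 of the 10, counted from the weakest.

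Peaks with the other mark were also higher and wider within their own list. The fold enrichment of a peak over the caller's local background, which is the authors' value, had a median of 3.94 for distal peaks of H3K27ac replicate 1 with H3K4me1 replicate 1, and of 3.17 for those without it. In H3K27ac replicate 2 the medians were 3.86 and 3.05. For H3K4me1 replicate 1 with and without H3K27ac replicate 1 they were 3.97 and 3.28, and for H3K4me1 replicate 2 they were 4.64 and 3.12. Median widths differed in the same direction, at 499 and 303 bp for H3K27ac replicate 1 with and without H3K4me1 replicate 1, and 958 and 412 bp for H3K4me1 replicate 2 with and without H3K27ac replicate 1. A wide peak meets other peaks more easily, and the part of width in the overlap was not tested.

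The effect of the unequal H3K4me1 lists was then followed. H3K4me1 replicate 2 held nearly all of replicate 1: 90.6% of the distal peaks of replicate 1 overlapped replicate 2, but 38.5% of those of replicate 2 overlapped replicate 1. The 63022 peaks of replicate 2 that met replicate 1 were strong (median −log10 q 13.1) and carried H3K27ac in 44.7% and 47.6% of cases (H3K27ac replicates 1 and 2). The other 100546 were weaker (3.91), though their median was above the 3.21 of all distal peaks of replicate 1. Of these 100546, 16.4% and 16.6% carried H3K27ac. The pooled background was 16.2%, but its single targets ranged from 0.0593% to 69.1%, so it gives no more than a rough reference. The 9491 peaks of replicate 1 that did not meet replicate 2 carried H3K27ac less often still, in 10.03% and 7.59% of cases. When only the strongest 100670 distal peaks of replicate 2 were kept, the length of replicate 1, their shares were 35.3% and 38.4%, against 41.1% and 44.2% for replicate 1. The remaining 62898 peaks had 14.5% and 12.9%. With H3K4me1 replicate 2 cut to the length of replicate 1 before distal peaks were selected, the gap between the lists fell from 14.8 to 6.52 percentage points.

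Equal numbers of the strongest peaks narrowed the gap further. With 20000 distal peaks from each list, 45.6% of H3K4me1 replicate 1 and 42.4% of replicate 2 met H3K27ac replicate 1, and 52.0% and 51.6% met H3K27ac replicate 2. The gap was 1.78 ± 2.01 percentage points (SD between H3K27ac libraries, n = 2), that is, smaller than this SD. The same H3K4me1 lists enter both differences, so this SD does not measure the spread between H3K4me1 libraries. At 70000 peaks it was wider again, with 41.1% against 36.7% for H3K27ac replicate 1 and 47.9% against 45.0% for replicate 2. A common significance threshold did not equalise the lists. Of the distal peaks, 28140 of H3K4me1 replicate 1 and 89167 of replicate 2 had a −log10 q of at least 5. With this threshold in all lists, H3K4me3 included, the gap grew to 29.8 percentage points. In the direction from H3K27ac, equal numbers did not remove the difference: at 20000 peaks, H3K27ac replicate 1 met H3K4me1 replicate 1 in 45.8% and replicate 2 in 53.8% of cases, and H3K27ac replicate 2 in 45.1% and 54.5%. Equal numbers did not make peak widths equal. Cut to 100670 distal peaks, H3K4me1 replicate 2 had a median width of 752 bp, against 395 bp for replicate 1. The part of width in this difference was not tested.

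Ranked slices of 20000 peaks show where the H3K4me1 lists part. The first slice of H3K4me1 replicate 1 met H3K27ac replicate 1 in 73.8% and that of H3K4me1 replicate 2 in 71.7% of cases. At ranks 20001 to 40000 the shares were 44.7% and 39.9%, at 40001 to 60000 they were 34.1% and 26.5%, and at 80001 to 100000 they were 25.4% and 17.7%. At ranks 140001 to 160000, which H3K4me1 replicate 2 alone reached, the share was 13.8%. The overlap of H3K4me1 replicate 2 with replicate 1 fell along the same slices, from 98.2% in the first to 9.71% at ranks 140001 to 160000.

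**Figure D2:**
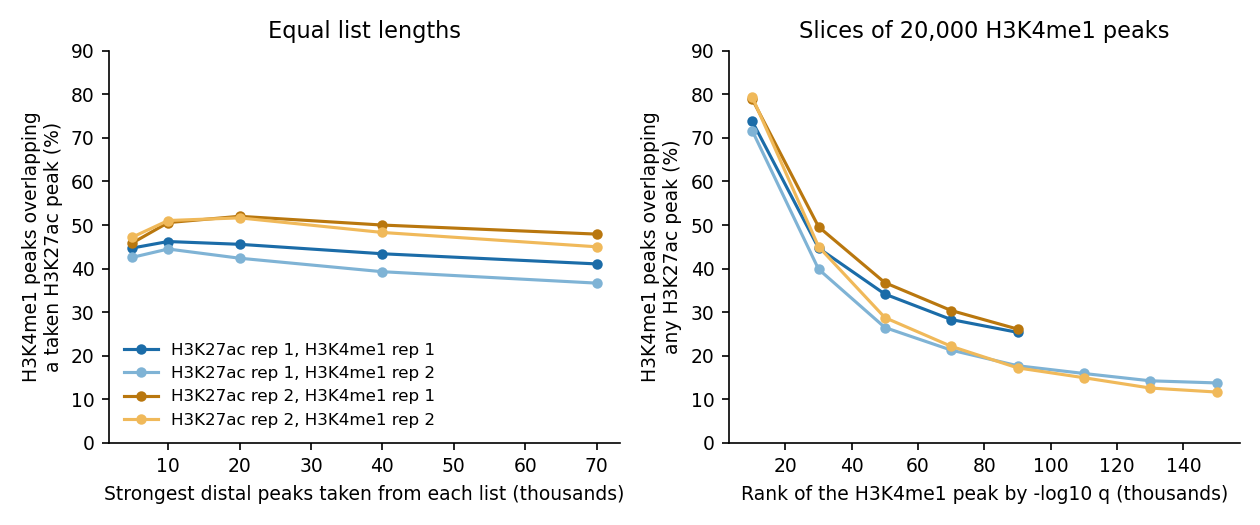
Left, share of distal H3K4me1 peaks that overlap H3K27ac (y axis, %) when the same number of strongest distal peaks (x axis, in units of 1000 peaks) is taken from each list, H3K27ac included. Right, share of H3K4me1 peaks overlapping any H3K27ac peak in slices of 20000 peaks by rank (x axis, in units of 1000). The 4 lines are the library pairs. The first slices lie between 71.7% and 79.4%, and in later slices H3K4me1 replicate 2 lies below replicate 1 for the same H3K27ac library.

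The H3K27ac lists differed in content more than in length. Of the distal peaks of H3K27ac replicate 1, 49.5% were found in replicate 2, and of those of replicate 2, 53.4% in replicate 1. Among the 20000 strongest of each, 91.4% and 78.2% were found in the other list. Distal H3K27ac peaks in both lists carried H3K4me1 replicate 1 in 65.0% and 65.8% of cases and H3K4me1 replicate 2 in 86.2% and 85.8% (H3K27ac replicates 1 and 2), so these shares were nearly equal. Peaks in 1 H3K27ac list differed: 21.4% (H3K27ac replicate 1) and 33.0% (H3K27ac replicate 2) met H3K4me1 replicate 1, and 43.5% and 61.5% met H3K4me1 replicate 2. The lower H3K4me1 share of H3K27ac replicate 1 thus came with 49233 peaks found in that list alone, which were narrow (median 291 bp) and weak (median −log10 q 2.74).

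Summits, the positions of the highest signal within a peak, were compared next. From a distal H3K27ac summit the nearest H3K4me1 summit lay at a median of 962 and 661 bp for H3K27ac replicate 1 (H3K4me1 replicates 1 and 2), and of 633 and 427 bp for H3K27ac replicate 2. The mean was 671 ± 199 bp (SD between H3K27ac libraries, n = 2). The spread between H3K27ac replicates was of the same size: from a distal H3K27ac summit of replicate 1 the nearest H3K27ac summit of replicate 2 lay at a median of 974 bp, and in the other direction at 511 bp. Between the H3K4me1 libraries the medians were 275 bp from replicate 1 to replicate 2 and 1099 bp from replicate 2 to replicate 1, the longer list being the nearer. From a distal H3K4me1 summit the nearest H3K27ac summit was farther away, with medians of 1286 and 1554 bp for H3K4me1 replicate 1 and 3397 and 3885 bp for replicate 2.

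Among distal H3K27ac peaks that overlapped H3K4me1, summits of the marks were close. Overlap itself limits how far apart the summits of narrow peaks can lie, and these H3K27ac peaks had median widths of 423 to 619 bp. The part of width in the distances, here and at H3K4me3, was not tested. The median distance was 188 and 282 bp for H3K27ac replicate 1 (H3K4me1 replicates 1 and 2) and 179 and 240 bp for H3K27ac replicate 2, and between 47.3% and 61.6% of these summits were at most 250 bp apart. For comparison, overlapping distal H3K27ac peaks of the 2 replicates had medians of 156 and 112 bp. At H3K27ac peaks that overlapped both H3K4me3 and H3K4me1, the distances were larger. There the H3K4me1 summit lay at a median of 643 and 660 bp (H3K27ac replicate 1) and 605 and 613 bp (H3K27ac replicate 2). Between 17.8% and 21.05% were within 250 bp. Without the condition of overlap with H3K4me1, the order was mixed. In the order of pairs above, medians at H3K4me3 were then 736, 687, 703 and 640 bp. Distal medians were 962, 661, 633 and 427 bp. For H3K27ac peaks under 500 bp wide, medians were larger for distal peaks (568 to 1426 bp) than at H3K4me3 (371 to 462 bp). Overlapping H3K27ac peaks of the 2 replicates at H3K4me3 had medians of 60 and 55 bp, so the H3K4me1 summits lay farther off than the spread between H3K27ac libraries.

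A valley of H3K4me1 at the centre of H3K27ac peaks was seen at H3K4me3 and not away from it. The density of H3K4me1 summits was measured within 250 bp of the H3K27ac summits and between 500 and 1500 bp from them, and the ratio of centre to flank was taken. A value under 1 is a valley. Around distal H3K27ac summits the ratio was 1.99 and 2.19 for H3K27ac replicate 1 (H3K4me1 replicates 1 and 2) and 2.26 and 2.52 for H3K27ac replicate 2, a mean of 2.24 ± 0.214 (SD between H3K27ac libraries, n = 2). H3K4me1 was thus concentrated on the distal H3K27ac summit. Around the H3K27ac peaks that overlapped H3K4me3 (20311 in replicate 1 and 21329 in replicate 2) the ratio was 0.554, 0.605, 0.650 and 0.721, a mean of 0.632 ± 0.0748 (n = 2). The 4 ratios of distal and the 4 of H3K4me3-overlapping peaks did not overlap. H3K27ac itself, read in the other replicate, had ratios of 2.59 and 2.59 at distal summits and of 6.70 and 6.93 at H3K4me3. All 4 H4 acetylation marks and BRD2 also had a mean ratio above 2 in both places, with the highest at 5.25 for BRD2 at H3K4me3. Of the other methylation marks, H3K9me3 (0.362) and H3K36me3 (0.516) were also under 1 at H3K4me3, while H3K27me3 averaged 1.27 with its libraries on both sides of 1 (from 0.860 to 1.64). Summits of these 3 marks were sparse there. At distal H3K27ac summits their mean ratios were also above 1, though lower than that of H3K4me1. They were 1.285 for H3K9me3, 1.254 for H3K36me3 and 1.131 for H3K27me3 (from 0.896 to 1.37).

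The profile gives the shape. At distal summits the density of H3K4me1 summits was highest in the first 50 bp in all 4 pairs, between 0.742 and 1.26 summits per kb per H3K27ac peak, and fell to between 0.224 and 0.261 at 2750 to 3000 bp. At H3K4me3 the first 50 bp held between 0.340 and 0.493. The density then fell to between 0.243 and 0.306 at 200 to 250 bp before it rose. The maximum there, between 0.570 and 0.607, lay at 750 to 1000 bp in 3 pairs and at 500 to 750 bp in the pair of H3K27ac replicate 2 with H3K4me1 replicate 2. Peak coverage showed the same. A distal H3K27ac summit lay inside an H3K4me1 peak in 35.1%, 59.1%, 41.0% and 68.9% of cases (in the order of pairs above), and positions 5000 bp away in 17.5%, 31.3%, 16.9% and 30.2%. At H3K4me3 the summit was covered in 25.3%, 40.3%, 26.2% and 43.7% and positions 1000 bp away in 43.3%, 64.3%, 40.2% and 61.1%.

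**Figure D3:**
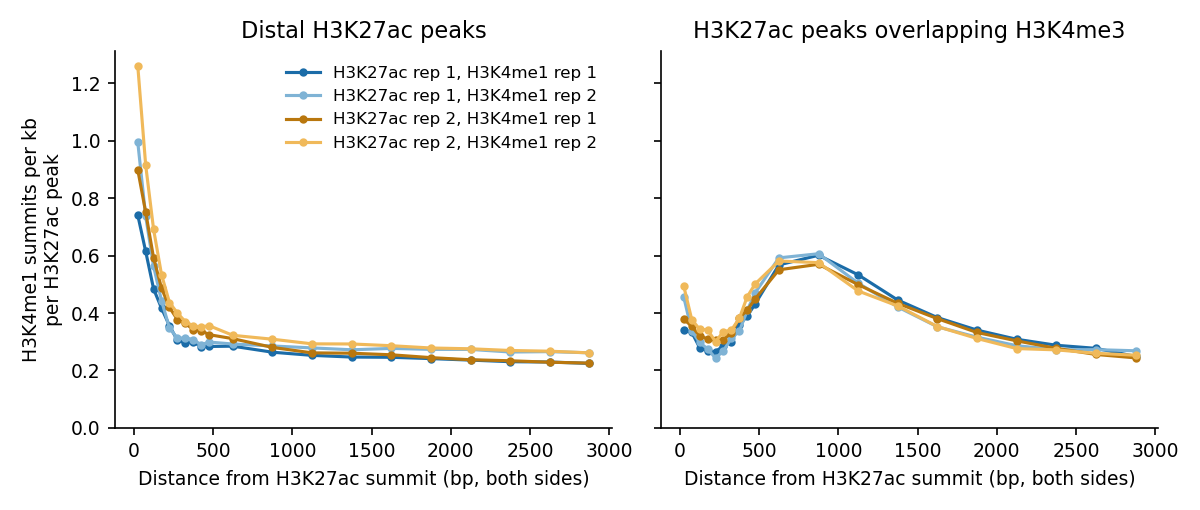
Density of H3K4me1 summits (y axis, summits per kb per H3K27ac peak) by distance from the H3K27ac summit (x axis, bp, both sides together), for distal H3K27ac peaks (left) and H3K27ac peaks overlapping H3K4me3 (right). The 4 lines are the library pairs. The distal lines start at 0.742 to 1.26 and fall. The lines at H3K4me3 first fall to 0.243 to 0.306 at 200 to 250 bp and then rise to 0.570 to 0.607 at 500 to 1000 bp.

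Single peaks were also sorted by pattern. Of distal H3K27ac peaks, between 25.9% and 38.1% had an H3K4me1 summit within 250 bp. Between 11.5% and 13.9% had none there but 1 or more on each side within 2000 bp, the flanked pattern, and between 15.5% and 36.3% had none within 2000 bp. At H3K4me3 the flanked pattern was the most frequent, with 46.1%, 49.4%, 43.9% and 48.3% in the order of pairs, and a central H3K4me1 summit was found at between 14.8% and 18.5%.

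With rising H3K27ac strength the ratio fell steadily at H3K4me3, while at distal peaks it rose and then dropped in part among the strongest. H3K27ac peaks at H3K4me3 are stronger, so peaks of like −log10 q were set side by side. Below a −log10 q of 3, the ratio was between 1.58 and 1.91 for distal peaks and between 1.85 and 2.41 at H3K4me3, so weak H3K27ac peaks had no valley in either place. Between 20 and 50, it was 2.92 to 3.65 for distal peaks and 0.636 to 0.979 at H3K4me3. At 100 or more, 1174 and 2250 distal peaks had ratios of 2.33 to 3.52, and 9186 and 10416 peaks at H3K4me3 had 0.157 to 0.260. Distal H3K27ac peaks as strong as those at H3K4me3 therefore had their H3K4me1 summits near the centre. Width gave a similar picture. In peaks of 2000 to 4000 bp, the ratio was 2.46 to 3.20 for distal and 0.193 to 0.250 at H3K4me3, and in peaks under 500 bp it was 1.74 to 2.12 and 1.56 to 1.97. The valley at H3K4me3 was shallower in peaks of 4000 bp or more (0.432 to 0.748).

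**Figure D4:**
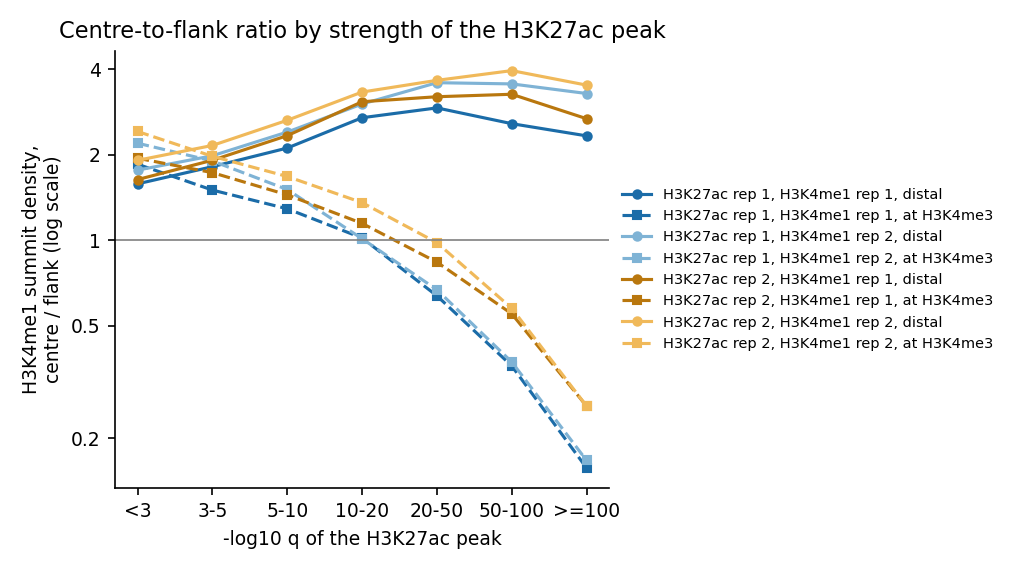
Ratio of H3K4me1 summit density within 250 bp to that at 500 to 1500 bp from the H3K27ac summit (y axis, log scale) by −log10 q of the H3K27ac peak (x axis). Solid lines with circles are distal peaks and dashed lines with squares are peaks overlapping H3K4me3, in colours for the 4 library pairs, and the grey line marks 1. The lines start close together below a −log10 q of 3 and end at 2.33 to 3.52 and 0.157 to 0.260.

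Most of the change lay close to H3K4me3. H3K27ac peaks within 1000 bp of an H3K4me3 peak but not touching it (4975 and 4168, left out of the distal set) had ratios of 1.09 to 1.34. At 1000 to 5000 bp, just inside the distal set, the ratios were 1.70 to 2.29, and beyond 100000 bp they were 2.22 to 2.42. The share of H3K27ac peaks with H3K4me1 fell over the first 20000 bp. It was 78.4% and 94.0% for H3K27ac replicate 1 (H3K4me1 replicates 1 and 2) within 1000 bp, 52.5% and 75.7% at 1000 to 5000 bp, and 40.5% and 61.4% at 5000 to 20000 bp. For H3K27ac replicate 2 it was 73.2% and 91.4%, 57.3% and 80.2%, and 53.5% and 76.3%. Farther out the H3K27ac libraries went opposite ways. With H3K4me1 replicate 1, the share at 20000 to 50000 bp, 50000 to 100000 bp and beyond was 40.0%, 42.1% and 44.2% for H3K27ac replicate 1, and 51.4%, 47.6% and 40.3% for replicate 2.

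All distal peaks of the 4 lists were then merged into 217288 regions, to find those called the same way in both libraries. Both marks in both of their lists were found at 24083 regions (11.1%). H3K27ac in both lists and H3K4me1 in neither was found at 4732 (2.18%), and H3K4me1 in both and H3K27ac in neither at 27847 (12.8%). Regions seen in a single list were the most frequent: 75239 (34.6%) only in H3K4me1 replicate 2, 27197 (12.5%) only in H3K27ac replicate 1, 13070 (6.02%) only in H3K27ac replicate 2 and 8149 (3.75%) only in H3K4me1 replicate 1. Of H3K27ac regions called in both H3K27ac lists, then, the smallest group was the one without any H3K4me1 peak. Regions with both marks were the widest (median 1873 bp, against 552 bp for H3K27ac alone and 741 bp for H3K4me1 alone). Their H3K27ac fold enrichment had medians of 4.76 and 4.86 in the 2 libraries, against 3.44 and 3.05 for H3K27ac alone. Their H3K4me1 fold enrichment had medians of 4.59 and 7.38, against 3.30 and 4.04 for H3K4me1 alone.

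The other targets, which the classes did not use, differed between them. H4K5acK8ac, a histone H4 tail with acetyl groups on lysines 5 and 8 together, was found at 57.9% ± 1.11 of regions with both marks, 25.8% ± 3.06 of those with H3K27ac alone and 7.77% ± 1.99 of those with H3K4me1 alone (SD between libraries of the other target, n = 2 each here and below). H4K5ac gave 64.8% ± 0.772, 25.8% ± 0.0448 and 14.3% ± 0.460, and H4K12ac 45.0% ± 2.57, 12.1% ± 0.822 and 10.4% ± 1.29. For H4K8ac the libraries of the target differed widely, with 52.8% ± 11.3, 29.9% ± 16.3 and 14.6% ± 5.05. BRD2, a BET protein whose bromodomains bind acetylated lysine, was at 12.4% ± 2.21 of regions with both marks, and at 2.34% ± 0.553 and 1.84% ± 0.731 of those with H3K27ac alone and H3K4me1 alone. Between H3K27ac alone and H3K4me1 alone, BRD2 differed by about the SD between its libraries. At least 1 of the 8 H4 acetylation lists had a peak at 86.9% of regions with both marks, 68.6% of those with H3K27ac alone and 34.6% of those with H3K4me1 alone. Every one of the 8 H4 acetylation lists had a peak at 23.2% of regions with both marks, 1.01% of those with H3K27ac alone and 1.35% of those with H3K4me1 alone. No list of the other 8 targets had a peak at 38.2% of H3K4me1-alone regions, against 2.92% with both marks and 8.28% with H3K27ac alone. Regions with both marks were the widest, and these shares over several lists were not taken in windows of equal width. The part of width in them was not tested.

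The methylation marks followed other orders. H3K27me3, the mark placed by Polycomb complexes on the residue that H3K27ac occupies, was most frequent at H3K4me1 alone (2.39% ± 0.267), then at H3K27ac alone (0.613% ± 0.179) and both marks (0.230% ± 0.0558). H3K36me3, a mark of transcribed gene bodies, was most frequent at H3K27ac alone (49.1% ± 0.986), then at both marks (43.7% ± 0.479) and H3K4me1 alone (24.4% ± 0.612). H3K9me3, a mark of heterochromatin that also lies over zinc finger genes, was most frequent at H3K27ac alone (15.1% ± 1.51), against 7.02% ± 0.634 at both marks and 1.37% ± 0.130 at H3K4me1 alone. The differences between classes in these 3 marks were larger than the SD between libraries of the target. Since wider regions meet more peaks, shares were also taken in windows reaching 500 bp to either side of the strongest summit. H3K9me3 was then at 16.3% ± 1.40, 2.72% ± 0.297 and 1.56% ± 0.170 for H3K27ac alone, both marks and H3K4me1 alone, so its excess over both marks at H3K27ac alone was larger, and H4K5acK8ac at 28.9% ± 3.13, 55.6% ± 0.447 and 8.16% ± 2.10. In the same windows and order, BRD2 was at 2.75% ± 0.662, 9.12% ± 2.89 and 1.86% ± 0.763, and H4K12ac at 13.7% ± 1.05, 39.7% ± 3.05 and 10.8% ± 1.14.

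**Figure D5:**
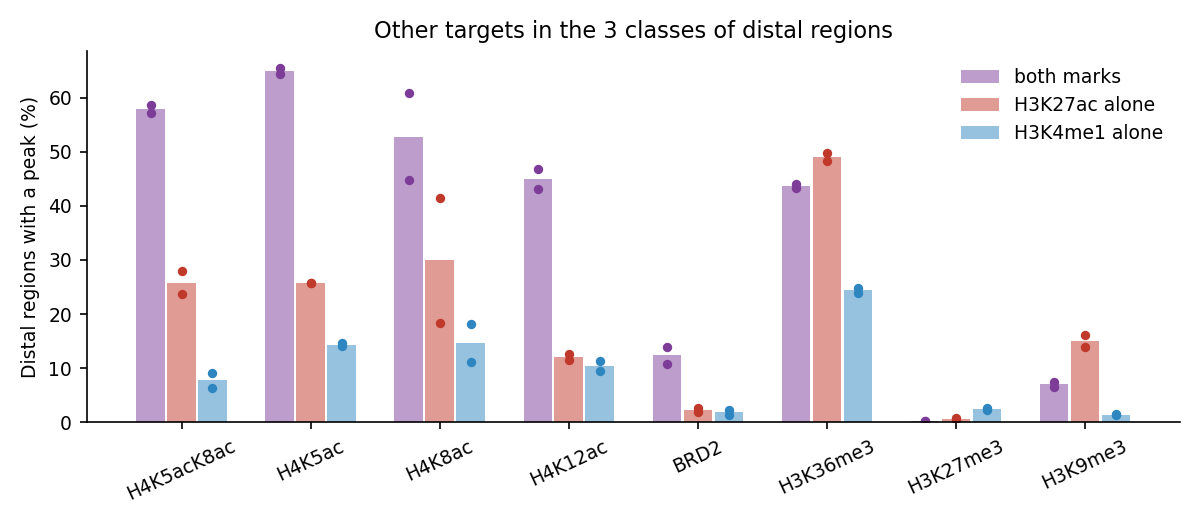
Share of distal regions with a peak of each other target (y axis, %) for regions with both marks, H3K27ac alone and H3K4me1 alone. Bars are the mean of the 2 libraries of the target and points the single libraries. The H4 acetylation marks and BRD2 are highest with both marks, H3K36me3 (49.1%) and H3K9me3 (15.1%) with H3K27ac alone, and H3K27me3 (2.39%) with H3K4me1 alone.

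Strong examples were named by a rule, the 3 with the highest fold enrichment in the weaker library of each class, outside chromosome 8 (for both marks, by the product of the ranks of the 2 marks). Coordinates are 1-based in hg19, the build that the submitters' processing notes name, and gene annotation was not used here. With both marks, the region at chr14:77382282-77388117 had H3K27ac fold enrichments of 49.2 and 53.1 and H3K4me1 fold enrichments of 19.7 and 26.2 in replicates 1 and 2. It carried all 4 H4 acetylation marks and BRD2 in both of their lists and lay 2288 bp from H3K4me3. At chr19:1213130-1219587 the values were 30.2 and 30.1 for H3K27ac and 20.5 and 36.9 for H3K4me1, with all 4 H4 acetylation marks and H3K36me3 but no BRD2 peak. At chr16:75337279-75343457, which lay 35397 bp from H3K4me3, they were 70.1 and 77.8 for H3K27ac and 14.5 and 20.5 for H3K4me1, with the 4 H4 acetylation marks, BRD2 and H3K36me3. The strongest H3K27ac summit of replicate 1 lay 97, 1341 and 92 bp from the strongest H3K4me1 summit of replicate 2 in these regions, and 1161, 1378 and 1293 bp from that of replicate 1, so the place of the strongest H3K4me1 summit moved between libraries in 2 of the 3.

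Of the H3K27ac-alone regions, chr17:37199710-37207993 had H3K27ac fold enrichments of 56.1 and 72.6 over 8284 bp. It carried the 4 H4 acetylation marks and BRD2, and H3K36me3 and H3K9me3 as well, in all lists. At chr21:34737781-34741466 the H3K27ac values were 18.2 and 47.7, and at chr7:121148851-121152726 they were 17.8 and 28.3. Both of these also carried H3K36me3 and H3K9me3 in both lists, and the last carried H3K27me3. The strongest H3K27ac-alone regions were thus called in lists of active and repressive marks together. Regions with high signal in many lists were not filtered out here. Whether the marks truly occur together in these regions was not tested. Of the H3K4me1-alone regions, chr6:111202359-111204917 had H3K4me1 fold enrichments of 12.5 and 13.9 and carried H3K36me3 only. It lay 1124 bp from H3K4me3, and the next, chr19:46802061-46802887 (9.83 and 10.1), lay 1323 bp away, both just outside the margin. The region on chromosome 19 was acetylated on H4: it carried H4K5acK8ac and H4K12ac in both of their lists, and H4K5ac and H4K8ac in replicate 1. The last, chr11:116830902-116832582 (9.50 and 14.5), lay 123694 bp from H3K4me3 and had no peak of any of the other 8 targets.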

How the data were processed

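Deposited narrowPeak lists of 22 libraries were used, 1 per library, and 4 of them are compared here. The submitters' processing notes name BWA, MACS2 and hg19; versions, settings, the control, filters and any pooling are not given in the sources used here. Per the file headers there is no header line, and columns were read by the narrowPeak layout. The deposited fold enrichment is a ratio to the caller's local background, the deposited significance is −log10 p and −log10 q, the deposited score was not used, and the summit is an offset in bp. These are the authors' values, used only to rank, filter or describe peaks within a list.

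Peaks on chromosomes 1 to 22, X and Y were kept (19 peaks over all 22 lists were not). No records of a list shared start and end. Overlap meant at least 1 bp with any peak of the other list, in all 4 library pairs; means carry the SD between libraries of the mark named. Lists were ranked by −log10 q. Functions of Python 3.11.15, numpy 2.4.6, pandas 2.3.3 and scipy 1.17.1 were tested on simulated data. Alternatives covered significance, list length, the margin to H3K4me3, overlap, windows, chromosomes and libraries left out. Regions named are the 3 per class given by the rule in the text, outside chromosome 8. Samples were grouped by title; the input library was not analysed here. The comparison, classes and windows were chosen with earlier results of these data known.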

Additional observations from a re-analysis of the deposited data

Results flagged for a closer look

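The centre-to-flank ratio of H3K4me1 summits around H3K27ac summits went in opposite directions in the 2 settings. Its mean was 2.24 at distal H3K27ac peaks, with all 4 library pairs above 1, and 0.632 at H3K27ac peaks overlapping H3K4me3, with all 4 below 1. The difference was not tested, and both sets of peaks come from the same libraries.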

How the results depend on the processing

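Since read numbers are unknown, differences in list length and in weak peaks cannot be set against depth. Limiting partners to distal peaks, the windows around summits and leaving out a library of another target were chosen after seeing the data. The centre-to-flank ratio at distal H3K27ac peaks stayed above 1 under all 15 alternatives run. At a −log10 q of at least 5 it was 3.60, the share of regions with both marks 26.8%, the gap between the H3K4me1 lists 29.8 percentage points and the summit distance 1098 bp. With the 20000 strongest distal peaks of each list, partners cut to the same number, H3K27ac with H3K4me1 was 49.8% and H3K4me1 with H3K27ac 47.9%. Both marks were at 29.9%, the gap was 1.78 percentage points, the summit distance 1628 bp and the ratio 5.44. Against the uncut H3K4me1 lists, the 20000 strongest distal H3K27ac peaks carried H3K4me1 in 77.6% to 91.8% of cases. With H3K4me1 replicate 2 cut to the length of replicate 1, both marks were at 27.3% and the gap was 6.52 percentage points. With 50% of the peak covered, H3K27ac with H3K4me1 was 49.7%. With a centre of 100 bp the ratio was 2.85 and with one of 500 bp 1.80. With distal partners only, both marks were at 22.4% and the gap was 13.4 percentage points. The cause of these changes was not tested. Without H3K4me1 replicate 1 or 2, H3K27ac with H3K4me1 was 69.6% or 46.7% and H3K4me1 with H3K27ac 27.9% or 42.7%, so 1 library decides these values. Over all libraries left out, the first ran from 46.7% to 69.6%, both marks from 23.7% to 26.2%, the gap from 13.8 to 15.6 percentage points, the distance from 530 to 811 bp and the ratio from 2.09 to 2.39. The excess of H4K5acK8ac at both marks over H3K4me1 alone was 50.2 percentage points and between 47.4 and 52.3 under all alternatives run. Of 36 class shares under alternatives that leave out no library, 6 moved by more than 1 SD, 5 of them among the 12 in windows around the strongest summit. An alternative on records sharing start and end was not run, since there were none.

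Whether libraries with the same replicate number are paired is not settled. Over 22916 bins of 100000 bp, peak numbers of libraries with the same number deviated together with a small positive correlation of 0.0699. With the replicate block, pairing only libraries of the same number, the gap was 12.6 percentage points, against 14.8 over all pairs. The share of H3K27ac with H3K4me1 was 58.7%, against 58.2%.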

Other observations

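Distal H3K27ac peaks found in a single list differed between the libraries in their other marks. Of the 49233 found in H3K27ac replicate 1 alone, 59.02% and 58.0% overlapped H3K36me3 (its replicates 1 and 2), and 5.21% and 5.42% overlapped H4K5acK8ac. Of the 34785 found in H3K27ac replicate 2 alone, 15.5% and 14.8% overlapped H3K36me3, and 14.5% and 17.8% overlapped H4K5acK8ac. Distal H3K27ac peaks found in both lists overlapped H3K36me3 in 39.7% and 39.0% of cases for replicate 1 and in 45.2% and 44.3% for replicate 2. With n = 1 library for each set no spread can be given.

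Regions with H3K4me1 alone had their lowest share on chromosome 19. There they made up 29.5% of the regions of the 3 classes, against 41.9% to 54.9% on the other autosomes, while both marks made up 56.9% and H3K27ac alone 13.6%. H3K27ac alone made up 5.11% to 11.5% on the other autosomes.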
